A study of Oryza sativa Indica Group with 17 samples.

Results

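CYP71P1 (LOC4351945) and the 3 measured genes before it on chromosome 12, LOC4351938, LOC4351940 and LOC4351944, form the interval that was low in all 4 radiation-induced rice lines with the spl1 phenotype. The 4 genes are measured by 5 of the 57194 probe sets of the array, 2 of them for CYP71P1. They were taken by gene ID out of 17903 genes placed on a chromosome, and were first picked because at least 50% of their probes were low in each of those lines. Their values in those lines, and the gap to the other lines, are therefore given as a description with no test.

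CYP71P1 is a cytochrome P450 enzyme, tryptamine 5-hydroxylase, which turns tryptamine into serotonin. Its gene is also called SL for Sekiguchi lesion, and loss of the enzyme in rice is known to let tryptamine build up and to produce the orange-brown spots of the Sekiguchi lesion mimic. Plants with a lesion mimic mutation form spots like those of a disease in the absence of a pathogen. The reference table gives LOC4351938, LOC4351940 and LOC4351944 as protein-coding genes with no other name, and no role is given for them here.

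The study used genomic DNA from leaves of greenhouse plants of the indica variety IR64 at 45 days, hybridized to the Affymetrix Rice GeneChip. The values used here have 1 column per line, 17 in all, each read as 1 array. The study also reports replicate hybridizations of G650 and F1856 during development, and replicates of the wild type. Whether replicates entered the columns used here is not stated. By the study's methods, 6 lines had the spl1 phenotype: the gamma ray lines G650 and G9799, the fast neutron lines F1856 and F2045, and the DEB (diepoxybutane) lines D1137 and D2943. G650, F1856, D1137 and D2943 had been assigned to the spl1 locus by complementation, and G9799 and F2045 were not genetically assigned. The 10 other lines were the DEB line D256, the gamma ray lines G282, G6485, G6489, G6603, G6686, G6728, G7534 and G6989, and the dwarf line d1, which the labels give as DEB and the methods as gamma ray. The remaining array is an untreated IR64 wild type check. The phenotype is in the methods and not in the sample labels. D1137 and G6989 are not among the lines for which the study lists counts of predicted deletions. The study discarded arrays that deviated strongly from the wild type and does not name them. Whether this applied to D1137 or G6989 is not stated, and both are kept here. All lines had been advanced by single seeds to the M4 or M5 generation after mutagenesis, and each may carry further induced changes. With 1 column a line, the values used here give no spread between replicates of any line.

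For every probe set and array, the deposited value gives which share of the perfect match probes the authors flagged for low signal relative to wild type. The values of 57036 of the 57194 sets, the 5 member sets among them, fall on whole steps of 11 probes (within 0.02), so 1 probe changes a member's share by 0.0909. A flagged probe can come from lost DNA, from changed DNA under the probe or from variation between hybridizations. The values do not tell these apart, and the untreated wild type check had flagged probes too. Separately, the study reports PCR evidence that selected gene models of the spl1 region were deleted, the cytochrome P450 gene among them. It also reports significantly lower expression of that gene in G650 than in wild type. Over all probe sets the mean share ran from 0.684% in F1856 and 0.768% in G650 to 10.8% in G282 and 17.6% in G6989, and it was 7.45% in the wild type check. Genes with a share of at least 0.5 are termed called, with the median taken when several probe sets stand for 1 gene.

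The sequences at hand for these genes are the PCR primers that the study designed for its gene models, since the probe sequences were not used here. LOC_Os12g16720 is the older gene model name of the cytochrome P450 gene, and LOC_Os12g16690 was matched to LOC4351944 through the transcript accession AK072042, which names both the primers and the probe set. They are shown 5′ to 3′ to identify the stretches of DNA that stand for the interval. F and R mark forward and reverse, and the place of the primers relative to the array probes was not examined. The 6 CYP71P1 primers have 17 to 27 bases and the 2 for LOC4351944 have 20 bases each.
CYP71P1, CytP450-4F: cttgcttctctgcttagtcacaatatt
CYP71P1, CytP450-4R: cttccccacttaaccacggttag
CYP71P1, 3F: ccaacacatctccattgctg
CYP71P1, cDR: cactcgaagtggtagag
CYP71P1, cDF: atcatcaaggagacgtt
CYP71P1, 4R: aactggcgctacgctacatc
LOC4351944, AK072042-2F: atgccgcagctaaatgtgga
LOC4351944, AK072042-1R: aaccttgtgagtgccaacga

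CYP71P1 was low in each spl1 radiation line by both of its probe sets. Os.25621.1.A1_at had 7 of 11 probes flagged in G650, G9799 and F1856 and 6 in F2045. Os.25621.2.S1_at had 8 of 11 in G650, F1856 and F2045 and 7 in G9799. As the median of both sets, the share was 0.682 in F1856 and also in G650, and 0.636 in both F2045 and G9799, a mean of 0.659 ± 0.0262 (SD over 4 lines). The sets gave the same count in 10 of the 17 arrays and never differed by more than 2 probes. Most of these equal arrays had no flagged probe in either set, and among the spl1 radiation lines only G9799 had equal counts.

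Outside these lines the enzyme's gene kept most of its signal. Of the 10 other lines, 7 had no flagged probe in either set. The others were G282, with 1 probe in the first set, G6603, with 1 probe in the second, and G6989, with 2 and 3 probes. The wild type check had 1 and 2 probes. The mean share over the 10 other lines was 0.0318 ± 0.0712 (SD), which leaves a difference of 0.627 to the spl1 radiation lines. The ranges did not overlap: the lowest radiation line stood 0.409 above the highest other line. Of all 17903 genes, 4 (0.0223%) had every spl1 radiation line above every other line. These were the members, which had been picked by calls in the same radiation lines.

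LOC4351944, which lies next to CYP71P1 with no other annotated gene between them, had the highest shares of the interval. F1856 and G650 had all 11 probes flagged, F2045 and G9799 had 10, which gives a mean share of 0.955 ± 0.0525 (SD, 4 lines). It was also the member with most stray flags elsewhere. G6989 had 3 flagged probes, G282 and G6603 had 2, and d1, G6485, G6489 and G7534 had 1, so 3 of the 10 other lines were at 0. The wild type check was at 0 and the mean share of the other lines was 0.100 ± 0.0904 (SD).

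LOC4351940 had 9 of 11 probes flagged in G650 and 8 in each of the other spl1 radiation lines, a mean share of 0.750 ± 0.0455 (SD, 4 lines). G6989 had 4 flagged probes, the highest value of any member outside the spl1 radiation lines at a share of 0.364. Apart from it, d1, G6603 and the wild type check had 1 probe each, and 7 of the 10 other lines were at 0. The groups did not overlap, as was so for the 4 members alone among all genes (0.0223%). The gap between the lowest radiation line and G6989 was also 0.364.

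LOC4351938, at the far end of the interval, had the lowest mean share and the largest SD of the members in the spl1 radiation lines. It had 8 of 11 probes flagged in F1856, 7 in G9799 and 6 in both G650 and F2045, a mean share of 0.614 ± 0.0870 (SD). G650 and F2045 are thus just inside the threshold of a call, which 6 probes meet and 5 do not. Only d1, G6989 and the wild type check had a flagged probe elsewhere, 1 each, and 8 of the 10 other lines were at 0.

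**Figure D1:**
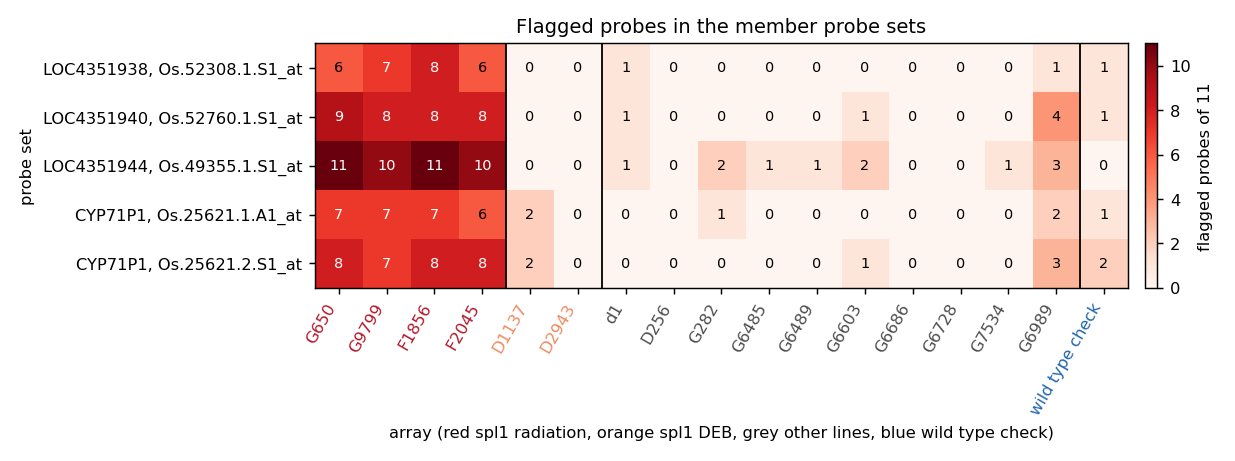
Number of flagged probes out of 11 (colour and figures) in the 5 member probe sets (rows) on each of the 17 arrays (columns), ordered by spl1 radiation lines, spl1 DEB lines, other lines and wild type check. The spl1 radiation lines hold 6 to 11 flagged probes in every set, and no other array holds more than 4.

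Together the 5 probe sets hold 55 probes, and the 4 spl1 radiation lines had nearly equal numbers of them flagged: 42 in F1856, 41 in G650, 39 in G9799 and 38 in F2045. This is a mean of 72.7% ± 3.32 (SD, 4 lines), against 4.73% ± 7.13 (SD) in the 10 other lines. Within a probe set the 4 lines differed by at most 2 probes, whichever mutagen had been used. LOC4351944 led in every line. The table gives no positions of probes within a set, so whether the same probes were flagged in each line is not known.

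The members' shares were among the highest of each of these arrays, which their choice by calls in these lines fixes. They did not stand apart from the other called genes: in F2045, LOC4351938 at 0.545 had 8 genes above it. All 4 members were called in each line, where 0.0559% of all genes were called in G650, 0.0614% in G9799 and 0.067% in both F1856 and F2045. LOC4351944 was the single gene of G650 with all probes flagged. Counting CYP71P1 itself, 5 genes of G650 had at least its share, 8 of F2045 and 10 of both G9799 and F1856. The members called in all 4 lines are the whole list of such genes, 0.0223% of those measured, which the choice of the members fixes.

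The gap around the threshold was wide at the level of genes. The lowest share of a member in any spl1 radiation line was 0.545. Among the genes outside the interval, 50 had a flagged probe in each of the 4 lines, and the lowest of a gene's shares over these lines was never above 0.0909. The 4 genes called in 3 of the 4 lines were all at 0 in G650.

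Line G6989 held 13 flagged member probes of 55, or 23.6%, more than any other array outside the spl1 radiation lines. This array also had the highest mean share over all probe sets, 17.6%. Its CYP71P1 share of 0.227 was reached or passed by 43.8% of all genes on the array, that of LOC4351944 (0.273) by 41.4% and that of LOC4351940 (0.364) by 20.7%. Without it, no member share outside the spl1 radiation lines was above 0.182. G282, with the second highest mean share, had 3 flagged member probes, or 5.45%, below the 10.8% of its array as a whole. Among the spl1 radiation lines, F1856 and G650 had the lowest mean shares of the 17 arrays, while F2045 with 3.53% and G9799 with 3.78% lay within the range of the other lines. F1856 and G650 are also the mutant lines that the study hybridized in replicate, and a link to their low mean shares was not tested.

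**Figure D2:**
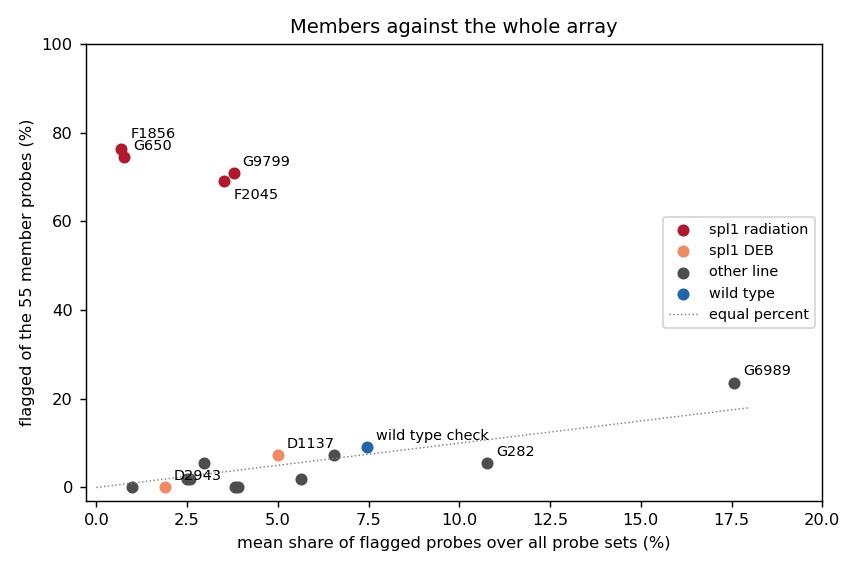
Percent of the 55 member probes that were flagged (y axis) against the mean share of flagged probes over all probe sets of the array (x axis, percent), 1 point per array, and the dotted line marks equal percentages. The 4 spl1 radiation lines lie at 69.1% to 76.4%, and G6989 is highest of the rest at 23.6%.

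The DEB lines D1137 and D2943 share the phenotype but not the low signal. Sequencing in the study found single nucleotide changes in LOC_Os12g16720, the gene model of CYP71P1, in both lines. Its authors also report that small DEB mutations escaped reliable detection on the arrays. No member was called in either line, where 1.69% and 0.0168% of all genes were called. D2943 had 0 of 55 member probes flagged. D1137 had 4, all of them in CYP71P1, with 2 of 11 in each of its probe sets, and 0 in LOC4351938, LOC4351940 and LOC4351944.

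The CYP71P1 share of D1137, 0.182, was higher than in 9 of the 10 lines without the phenotype and lower than in G6989, and on its own array 11.2% of all genes had at least that share. The question whether the DEB lines as a pair differ from the 10 lines without the phenotype was put to the one test that the choice of the members allows. The mean share was 0.0909 in the DEB pair and 0.0318 in the other lines, a difference of 0.0591 (two-sided exact permutation p = 0.318 over 66 arrangements, smallest possible 0.0152). Since small DEB mutations escaped reliable detection on the arrays, the test cannot tell a changed gene from an intact one. By the methods, 9 of the 10 other lines are gamma ray lines and only D256 is a DEB line. Phenotype therefore cannot be told apart from mutagen in this test. The difference rests on D1137: with D2943 alone it was -0.0318 and with D1137 alone 0.150. With 1 line against 10 an exact permutation test cannot go below p = 0.0909, so no test is given for either line alone.

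The genes on both sides of the members show where the lines differed. Past CYP71P1 the next measured gene, LOC9270227, had a median share of 0.273 in G9799 and 0 in G650, F1856 and F2045. Of its 6 probe sets, Os.13715.2.S1_x_at and Os.13715.3.S1_x_at had all probes flagged in G9799, Os.15824.1.S1_at had a share of 0.455 there, and the other 3 had 0.0909 or less. On the next 4 genes, LOC4351951 to LOC4351956, the highest share in any spl1 line was 0.182, in G9799. Before LOC4351938, LOC4351932 had every probe flagged in F1856, F2045 and G9799 and none in G650.

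Several annotated genes near the members have no paired probe set in the annotation used. Between LOC4351938 and CYP71P1 the reference table lists 8 gene models without a paired probe set, of which 5 are long noncoding RNAs, 1 is a pseudogene and 2, LOC9272600 and LOC107277800, are protein-coding. A further 3 models lie between LOC4351932 and LOC4351938 and 4 between CYP71P1 and LOC9270227. In G650 the outermost called genes and the nearest measured genes at 0 are thus separated on both sides by models without a paired probe set. On the array, 34663 probe sets have no gene in this pairing. Whether any of them covers these models was not examined.

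**Figure D3:**
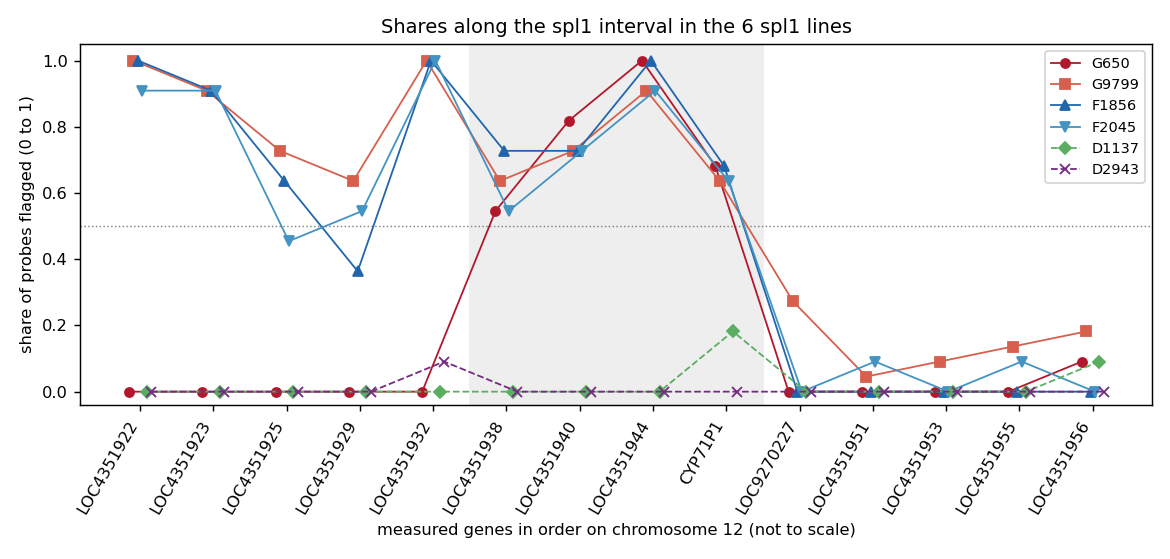
Share of flagged probes (y axis, 0 to 1, median over a gene's probe sets) in 14 neighbouring measured genes of chromosome 12 in their order (x axis, not to scale) for the 6 spl1 lines, with the 4 members shaded and the threshold of 0.5 dotted. The 4 radiation lines are above the threshold at every member and at or below 0.273 from LOC9270227 on, while D1137 and D2943 stay at or below 0.182 throughout.

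Probe sets without a named gene showed the same calls. In all, 14 probe sets (0.0245% of the array) were called in the 4 spl1 radiation lines, 5 of them those of the members. The remaining 9 have no gene in the annotation used, so their place in the genome is not known here. They were picked by the same calls, and their values are a description.

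Among these 9, Os.27064.1.S1_at had all 11 probes flagged in each of the 4 lines. It had 8 of 11 flagged in D1137 as well, where 1.44% of all probe sets were called, and 1 in D2943. In the other lines it had at most 3, in G6989, and in the wild type check 0. It was the one of the 14 sets called in a DEB line.

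Os.52225.2.S1_at had 8 of 11 probes flagged in each of the 4 lines, and outside them 1 in G6989, 2 in the wild type check and 0 in the remaining 11 lines. Os.55820.1.S1_at had 10 in F1856 and G650 and 9 in the other radiation lines, with 3 in D1137 and G282. OsAffx.19707.1.S1_at had 6 to 8 and no more than 1 elsewhere. These 3 sets were called in no other array, as were the 5 member sets and 3 more of the 9.

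Of the other 5 sets, 2 were called elsewhere. Os.48730.1.S1_s_at, with 10 or 11 flagged probes in the spl1 radiation lines, was also called in G282 (7 of 11) and G6989 (6 of 11), where 1.73% and 2.55% of all probe sets were called, and OsAffx.31660.1.S1_at, with 8 in each, was called in G6989 (6 of 11). OsAffx.31660.2.S1_x_at, OsAffx.31767.2.S1_at and OsAffx.31767.2.S1_x_at had 7 to 10 flagged probes in the 4 lines and at most 5 elsewhere, and are the 3 further sets called in no other array. Sets ending in _s_at or _x_at can match more than 1 transcript.

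**Figure D4:**
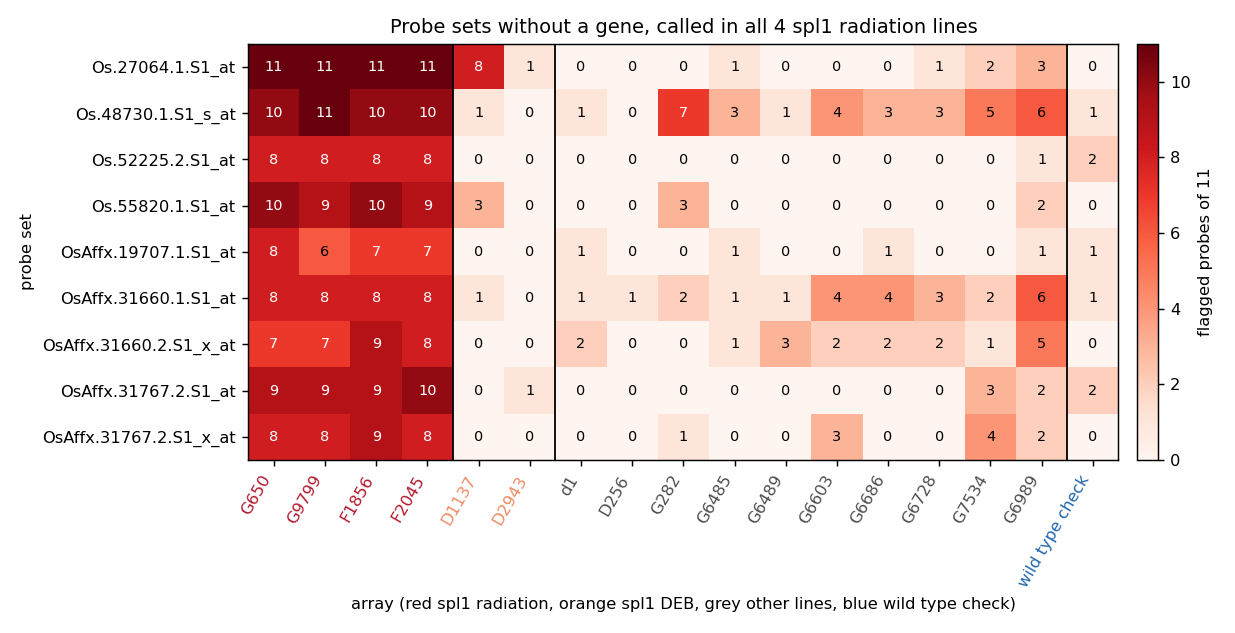
Number of flagged probes out of 11 (colour and figures) in the 9 probe sets without a paired gene (rows) that were called in all 4 spl1 radiation lines, on the 17 arrays (columns) in the same order of groups. Os.27064.1.S1_at has 11 flagged probes in the 4 lines and 8 in D1137, and Os.48730.1.S1_s_at and OsAffx.31660.1.S1_at reach 6 or 7 in G6989 or G282.

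Genes with a pattern like that of CYP71P1 were sought over the 17 arrays by Pearson's r of the gene shares. The r values are a description, since all arrays and the wild type reference are shared. For the members, a high r also follows from their choice by calls in the same radiation lines. LOC4351940 had r = 0.977, LOC4351938 0.968 and LOC4351944 0.966. Outside the interval the 8 most alike were LOC4351922 (0.785), LOC4351923 (0.774), LOC4351929 (0.764), LOC4351919 (0.752), LOC4351932 (0.697), LOC4351918 (0.637) and LOC4351925 (0.582), all on chromosome 12 and low in some of the radiation lines, and LOC4338655 on chromosome 5 (0.558). LOC4351922, LOC4351923, LOC4351925, LOC4351929 and LOC4351932 were at 0 in G650. LOC4338655 had a mean share of 0.0455 in the spl1 radiation lines and was called in none of them. Over all 17721 genes that vary, the median r was -0.114.

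Without the 4 lines that chose the members, the members were no longer the most alike of these genes. Over the 13 remaining arrays, r to CYP71P1 was 0.694 for LOC4351940, 0.517 for LOC4351938 and 0.344 for LOC4351944. Outside the interval it was 0.806 for LOC4351918, 0.672 for LOC4338655 and 0.625 for LOC4351929. All of these rest on a few flagged probes.

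The other named genes of the pathway around CYP71P1 were near the level of all genes in the spl1 radiation lines. Of 9 measured genes that the reference table names for tryptophan synthesis and for steps from tryptophan to serotonin and melatonin, 0 were called in any spl1 radiation line, where 22 genes of the whole table (0.123%) were called in at least 1, so that a count of 0 is at the background. Their median mean share in these lines was 0.0227, equal to that of all genes. TDC2, a tryptophan decarboxylase, which makes the tryptamine that CYP71P1 uses, was at 0 in all 4 lines. SNAT1 and SNAT2, serotonin N-acetyltransferases of the next step, both had a mean share of 0.0227, and ASMT and ASMT3, named for the last methylation step to melatonin, were at 0.

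The subunits of anthranilate synthase, which feeds tryptophan synthesis, were as little affected. ASA1 and ASA2 had a mean share of 0.0227 over the spl1 radiation lines, OASB1 was at 0, and OASB2 had the highest value of the list with 0.0455 and 0.182 in G9799. OASB1 was the one pathway gene called in any array, at 0.545 in G6989, in which 3.1% of all genes were called.

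Other genes that the reference table names as cytochrome P450, the enzyme's protein family, are given for comparison. Of 38 other genes named as cytochrome P450, 28 were measured and 0 were called in a spl1 radiation line, beside the 0.123% of all genes. Their median mean share there was again 0.0227, and 10 were at 0 in all 4 lines. The highest means were 0.0909 for CYP85A1, 0.0682 for CYP71Z6 and CYP74A4, and 0.0568 for CYP701A19, while CYP71P1 had 0.659. CYP714C2, CYP76M7, CYP76M8 and CYP87A3 shared the next value, 0.0455. CYP85A1 makes brassinosteroids and CYP74A4 belongs to the allene oxide synthase family of jasmonate synthesis. Among these 28 genes, CYP74A4 was the only one called in any array, at 0.545 in D1137. Of all genes, 1060 (5.92%) were called in at least 1 of the 17 arrays.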

How the data were processed

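The authors scanned each array 2 times and averaged the scans, read the perfect match probes with the affy package named in the submitters' processing notes without a version, scaled them to the wild type average without background correction and flagged probes by their log2 ratio to wild type. The deposited values are the fraction of each probe set's perfect match probes flagged in this way. The sources used here do not give the log ratio chosen for the table. The labels name the wild type check as reference of every array, its own included, so the reference of that array is unclear. Raw signals were not used here, and the 11 probes of a member set limit the precision.

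Probe sets paired with exactly 1 gene (22436) were ordered with the RefSeq annotation of ASM3414082v1, from which gene symbols and gene order were taken but no coordinates. Python 3.11.15 with numpy 2.4.6 and pandas 2.3.3 was used. The steps were tested on simulated data. The members and lists were chosen with earlier results of these data known. Genes were named by rule: the members, 5 measured genes on each side, the 8 most alike, the listed pathway genes, the 5 P450 genes highest in the spl1 radiation lines (4 shared the fifth value) and the unpaired sets called in all 4 lines. A comparison of proteins was not made. Alternatives were other call thresholds, summaries, probe sets, centring, subtraction of the wild type check and lines left out.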

Additional observations from a re-analysis of the deposited data

Results flagged for a closer look

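Of the 8 groups of lines examined (4 genes, each in the 4 spl1 radiation lines and in the 10 other lines), 3 held a line apart from the rest of its group by the gap to its nearest neighbour over the range. For continuous values chance marks about 1 in 20 groups, a rate that does not hold for these shares, which move in steps of 1 probe and are often tied. LOC4351940 was at 0.818 in G650 while the other spl1 radiation lines were all at 0.727, a difference of 1 probe. LOC4351940 was at 0.364 in G6989, and CYP71P1 at 0.227 in the same line. G6989 has the highest mean share over all probe sets, 17.6%. The part of that array-wide level in both values was not tested.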

How the results depend on the processing

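Of 55 recomputed values, 52 were scored as kept. For the DEB difference this meant the same sign and the same side of the permutation threshold of 0.05. For the median member shares it meant a move below the SD of all member values pooled over genes and lines. That SD includes differences between genes. For the CYP71P1 difference between the radiation and other lines it meant a move below the combined SD over lines of both groups. Counts of called genes were scored loosely, and a fall from 4 to 3 was scored as kept. The count of members called in all 4 spl1 radiation lines was 3 or 4 throughout. It was 3 with a share of 0.6 or more and with the wild type check subtracted. LOC4351938, just inside the threshold, is the member at issue. The count over all genes ranged from 4 to 8 when 1 line was left out, with 8 without G650. Subtracting the wild type check moved the median member share of the 10 other lines from 0 to -0.0909. The DEB difference for CYP71P1 ranged from -0.0318 without D1137 to 0.150 without D2943, and with both DEB lines its exact permutation p ranged from 0.152 to 0.758. No paired analysis was possible because the table used here holds 1 column for each line.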

Other observations

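Just below the threshold of a call lay 3 more probe sets with no paired gene, chosen after their values were seen. OsAffx.19704.1.S1_at and OsAffx.7611.1.S1_at both had a share of 0.455 in G650, 0.636 in G9799 and F1856 and 0.545 in F2045. OsAffx.7615.1.S1_at had 0.545 in F2045 and 0.455 in the other spl1 radiation lines. All 3 would join the 14 sets shared by these lines at a share of 0.4 or more.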
